A study of Danio rerio with 4 samples.

Results

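The genes described here belong to the early secretory pathway, the route by which proteins enter the endoplasmic reticulum (ER), are folded and glycosylated there, and travel to the Golgi apparatus. They were chosen by gene symbol alone, as families of the signal recognition particle, the Sec proteins, the translocon-associated proteins, signal peptidase, oligosaccharyltransferase, protein disulphide isomerases, prolyl 4-hydroxylases, calreticulin and calnexin, ER-associated degradation, the COPI and COPII coats, and the p24 and KDEL receptors. Of the 8793 genes measured, 65 met that rule, on 79 probe sets.

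The study compared 2 populations of cells sorted from adult zebrafish kidney, where blood is made in this species. Both came from the gate of low forward and low side scatter that holds lymphoid cells, and were split by the DNA dye Hoechst. The zSP cells are the side population, which stains dimly because such cells pump the dye out, and the zMP cells are the main population. No treatment or mutation separated them, and the labels give neither strain nor sex. Lysates from 3 sorts, which used 20 fish, were combined into 1 pool for each population, and 2 aliquots of its RNA were each amplified in 2 rounds and put on an array of their own. Every value therefore has a technical error and no biological one, and no test between the populations is possible.

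A secretory protein is recognised by its signal peptide as it leaves the ribosome, taken to the ER membrane by the signal recognition particle, and threaded through the Sec61 channel. Signal peptidase removes the signal, oligosaccharyltransferase adds glycans, and chaperones and disulphide isomerases fold the chain. Folded cargo leaves the ER in COPII vesicles, COPI vesicles bring escaped residents back, and unfolded chains are sent to degradation. In blood-forming tissue, plasma cells are the classical example of a cell that enlarges this whole apparatus.

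Values are log2 expression values made by the authors with RMA, and each difference is the zSP mean minus the zMP mean on that scale, over 2 arrays each, with the lowest and highest of the 4 pairs of arrays in parentheses. A gene was called when all 4 pairs differed by at least 2-fold in one direction, which is a rule of size and gives no p-value. Levels of different genes are not compared, since each probe set has its own response. A mean up to 6.15, the highest among 49 control probe sets for sequences that zebrafish cells do not transcribe, is no evidence of a transcript, and this span is called the blank range. One control set this limit, which is 5.24 without it. Of the 65 genes, 40 lay above 6.15 in zSP and 39 in zMP, and 47 in zSP and 52 in zMP lay above 5.24. The means of spcs2 and pdia3 in zSP lay below both limits.

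The pools differed in more than this pathway. The median difference of all 8793 genes was -0.20 (-0.23 to -0.18), and 0.00 after cyclic loess, so class medians are also given relative to that of all genes. The blank controls themselves were lower in zSP for 48 of 49, with a median of -0.38, and the 2921 genes above the blank range in a pool had a median of -0.03. Negative differences of members within the blank range, such as calr at -0.39, calr3b at -0.47, p4ha2 at -0.52 and srp19 at -0.24, stand against that shift of the controls. The GAPDH control, whose 3′ probe set exceeds its 5′ one where RNA or its copies are short, gave a 3′ excess of 3.94 in zSP and 3.09 in zMP. Among 14 epithelial markers, 11 were called, all of them higher in zSP. The log2 of their summed signal was 13.46 and 13.47 on the zSP arrays and 8.28 and 8.30 on the zMP arrays, where all but krt8 had means within the blank range. Of 10 stroma markers 8 were called higher in zSP, with summed signals of 11.79 and 12.06 on the zSP arrays against 7.86 and 8.28 on the zMP arrays, all 10 with zMP means within the blank range. Of 9 leukocyte markers, none was called higher in zSP and 3 were called higher in zMP, with summed signals of 13.10 and 13.20 in zSP and 14.14 and 14.28 in zMP, and 8 of the 9 lay above the blank range in both pools. Of the 4 genes measured for T and NK cells, nkl.4 and runx3 exceeded that range in zMP and none did in zSP, with summed signals of 5.94 and 7.19 in zSP and 9.79 and 9.64 in zMP. Of 11 symbols listed for B and plasma cells, only blnk, pax5 and btk were measured, and btk alone exceeded that range, in both pools. The others, among them irf4a, irf4b, prdm1a, ighm, ighz and mzb1, were not among the genes measured. Of the 5 erythroid genes only hbaa1 exceeded the blank range, in zMP. Few lymphoid markers were thus above the blank range, while 8 of 14 epithelial and 7 of 10 stroma markers were above it in zSP. The called pax2a, hnf1bb, slc13a1, col1a2 and postnb had both means within it. The arrays of slc12a3, pax8 and fn1a lay higher in zMP without overlap, as did 41.0% of all genes. Their differences were -0.93, -0.78 and -0.32, with both means of each within the blank range. The part of these shifts in the results below was not tested, and in such pools fewer cells of a type and less RNA per cell cannot be told apart.

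Few members were called. None of the 65 members was called higher in zSP, where 7.85% of all genes were, and 3 members, or 4.62%, were called higher in zMP, where 2.89% of all genes were. These 3 were spcs2, ssr4 and pdia3. More of the members than of all genes lay above the blank range, so a like set is also given. Of the 44 members above that range in a pool, 0 passed the call towards zSP and 3 towards zMP. Among the 2921 genes above it, 16.9% passed towards zSP and 6.57% towards zMP. The member median was -0.24, which is -0.04 relative to all genes. The relative value depended on the reference, at -0.17 after a second quantile normalization and -0.22 for the 44 members above the blank range in a pool against all such genes. Its sign turned when zSP replicate 1, zSP replicate 2 or zMP replicate 1 was dropped, to 0.16, 0.007 and 0.07. When zMP replicate 2 was dropped it was -0.05. As for the spread of the member median, the medians taken in single pairs of arrays, which need not enclose -0.24, ran from -0.22 to -0.08. The arrays of the pools did not overlap, whatever the size of the gap, for 16 members with higher zSP values and 25 with higher zMP values. These are 24.6% and 38.5% of the members, against 21.7% and 41.0% of all genes. With only 2 pairs needed, 5, 1, 2 and 3 members were called higher in zSP without zSP replicate 1, zSP replicate 2, zMP replicate 1 and zMP replicate 2, and 5, 6, 5 and 3 higher in zMP. Of the 8793 genes, 1048, 1097, 969 and 971 were then called higher in zSP, at most 12.5%, and 589, 558, 591 and 532 higher in zMP, at most 6.72%. The nearest genes on either side of the call were ssr4, whose smallest pair difference was 1.07, and sec23b, whose smallest was 0.98.

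**Figure D1:**
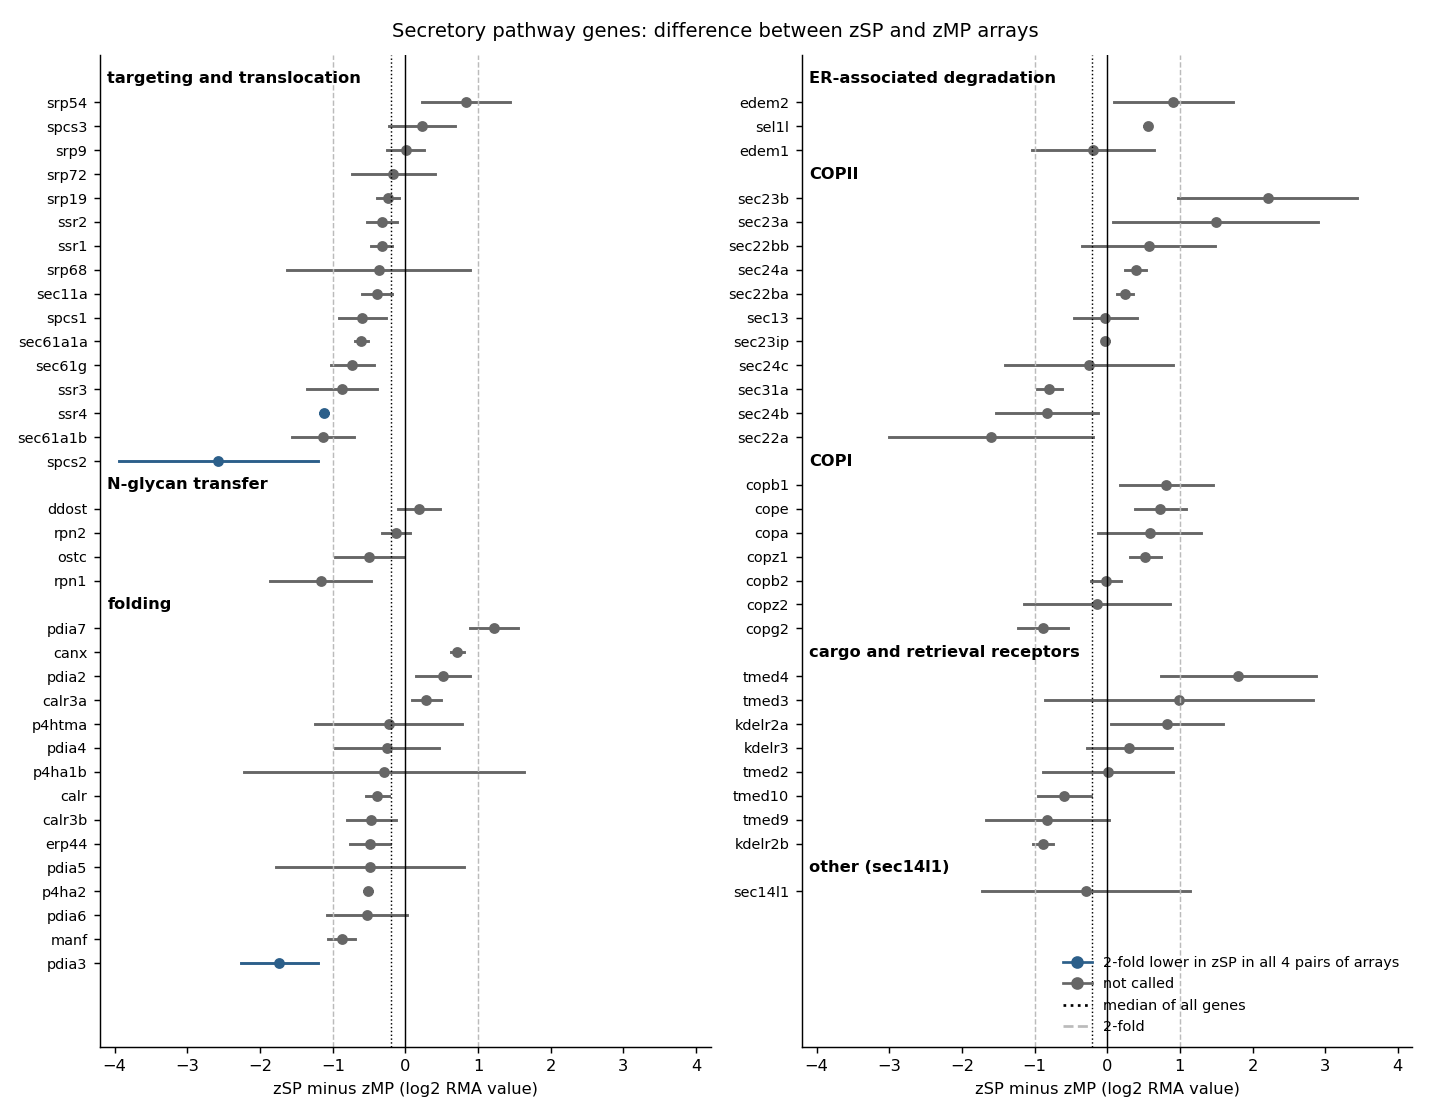
Difference between zSP and zMP (horizontal axis, log2 RMA value) for the 65 genes by class; points are differences of means and bars span the 4 pairs of arrays. The 3 called genes, spcs2, ssr4 and pdia3, lie at -2.58, -1.12 and -1.73; the dotted line is the median of all genes, -0.20.

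The classes differed in their medians more than the whole did. Targeting and translocation stood at -0.38, folding at -0.39 and N-glycan transfer at -0.32, whereas the COPI coat stood at 0.52 and the 3 genes of ER-associated degradation at 0.55. Relative to all genes these are -0.17, -0.18, -0.11, 0.73 and 0.76. Among genes above the blank range the relative value of targeting and translocation was -0.56. That of N-glycan transfer turned to 0.015 without zSP replicate 2, 0.03 without zMP replicate 1 and 0.07 without shared-sequence probe sets. COPII at -0.02 and the cargo and retrieval receptors at 0.16 lay between. The sign of COPII turned, to 0.05 after median centring, 0.11 after a second quantile normalization, 0.15 after cyclic loess, and 0.21 and 0.17 without zSP replicate 1 and zMP replicate 2. The sign of the receptors turned to -0.16 and -0.17 without zSP replicate 1 and zMP replicate 1. Relative to all genes COPII was 0.18 and the receptors 0.36, and these signs did not turn. Over the alternative runs the relative values were 0.15 to 0.41 for COPII and 0.03 to 0.67 for the receptors.

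**Figure D2:**
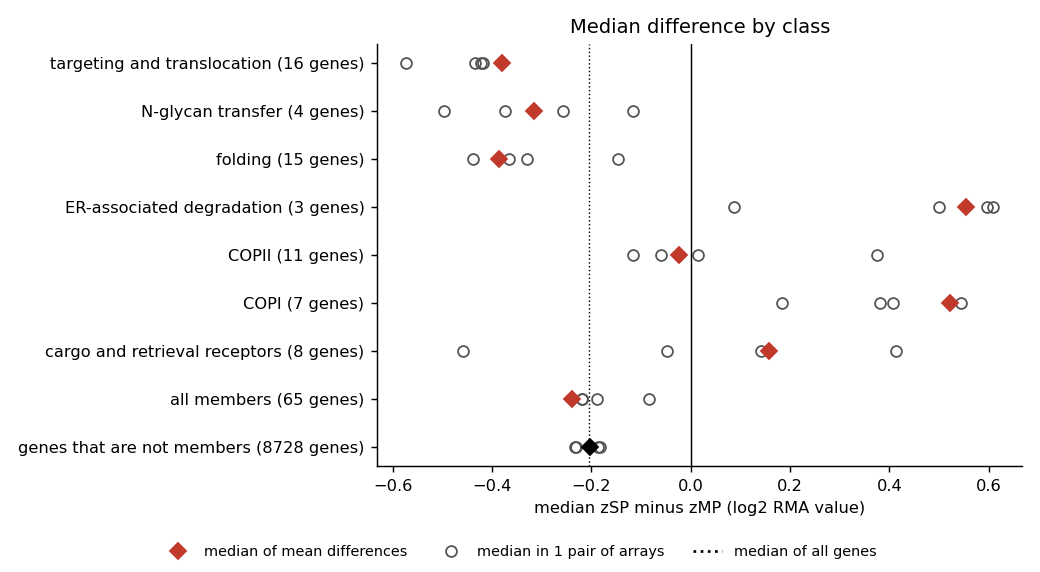
Median difference of each class (horizontal axis, log2 RMA value); diamonds are medians of the mean differences and open circles the medians in single pairs of arrays. COPI and ER-associated degradation lie to the right of zero in all 4 pairs, targeting and translocation, N-glycan transfer and folding to the left in all 4. All genes lie to the left too. Between zSP replicate 1 and zMP replicate 2, N-glycan transfer was -0.12 against -0.23 for all genes. Between zSP replicate 2 and zMP replicate 2, folding was -0.15 against -0.18.

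Translocation into the ER was the part of the pathway with the most even direction, towards lower values in zSP. In the class of targeting and translocation 13 of 16 members had a negative difference, against 5361 of all 8793 genes. For 11 of the 16 both zSP arrays lay below both zMP arrays, 68.8% against 41.0% of all genes. Only 2 of them were called, the signal peptidase subunit gene spcs2 and ssr4. For srp54 alone both zSP arrays lay above both zMP arrays, 6.25% of the class against 21.7% of all genes.

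All 3 genes of the Sec61 channel were lower on both zSP arrays than on both zMP arrays, as were 41.0% of all genes. The channel gene sec61a1b had 7.11 and 7.80 on the zSP arrays and 8.50 and 8.68 on the zMP arrays, a difference of -1.14 (-1.57 to -0.71). Its paralogue sec61a1a had 8.87 and 8.90 in zSP against 9.41 and 9.57 in zMP, a difference of -0.60 (-0.70 to -0.51). The small subunit gene sec61g had 9.08 and 8.89 in zSP and 9.91 and 9.51 in zMP, a difference of -0.73 (-1.02 to -0.44). None of the 3 was called. The median of the 3 was -0.73, and it was -0.46 after cyclic loess, with all 3 still negative.

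The TRAP complex sits beside the channel and helps chains with weak signals to enter. All 4 of its genes had lower values on both zSP arrays, as did 41.0% of all genes. Of these ssr4, the delta subunit, was called at -1.12 (-1.17 to -1.07), with 9.19 and 9.15 on the zSP arrays and 10.32 and 10.26 on the zMP arrays. The arrays of each pool agreed within 0.06 for this gene, so the gap between pools was larger than that between aliquots. The call ended at -1.04 after median centring and at -0.82 after cyclic loess. The gamma subunit gene ssr3 had 8.54 and 9.20 in zSP and 9.90 and 9.60 in zMP, a difference of -0.87 (-1.36 to -0.39). Smaller gaps were seen for the alpha and beta subunit genes ssr1 and ssr2, at -0.33 and -0.32. The TRAP median of -0.60 is -0.40 relative to all genes. All 4 differences kept their sign under each of 3 other normalizations, but after cyclic loess ssr1 and ssr2 stood at only -0.05 and -0.03. The TRAP median was then -0.33.

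Signal peptidase, which cuts off the signal peptide, gave the largest difference among the members, and its genes differed in size and sign. The subunit gene spcs2 had 5.46 and 2.92 on the zSP arrays and 6.87 and 6.67 on the zMP arrays. It fell by 2.58 in zSP (-3.95 to -1.21), with a zSP mean within the blank range. The zSP arrays lie 2.54 apart, and the difference was -3.85 on zSP replicate 2 alone and -1.31 on zSP replicate 1 alone. The other subunits did not go with it in size. The gene of the catalytic subunit, sec11a, differed by -0.39 (-0.60 to -0.19), spcs1 by -0.59 (-0.92 to -0.27) and spcs3 by 0.23 (-0.23 to 0.69).

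The signal recognition particle, which delivers ribosomes to the membrane, had no common direction among its 5 genes. The signal-binding GTPase gene srp54 had 8.42 and 8.83 on the zSP arrays and 7.39 and 8.19 on the zMP arrays, a difference of 0.83 (0.23 to 1.44). The differences of srp9, srp19, srp68 and srp72 were 0.00, -0.24, -0.37 and -0.17. The arrays of the pools overlapped for srp9, srp68 and srp72, while srp19 was within the blank range in both pools, as were srp9 and srp72. The zSP arrays of srp68 were 1.91 apart.

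**Figure D3:**
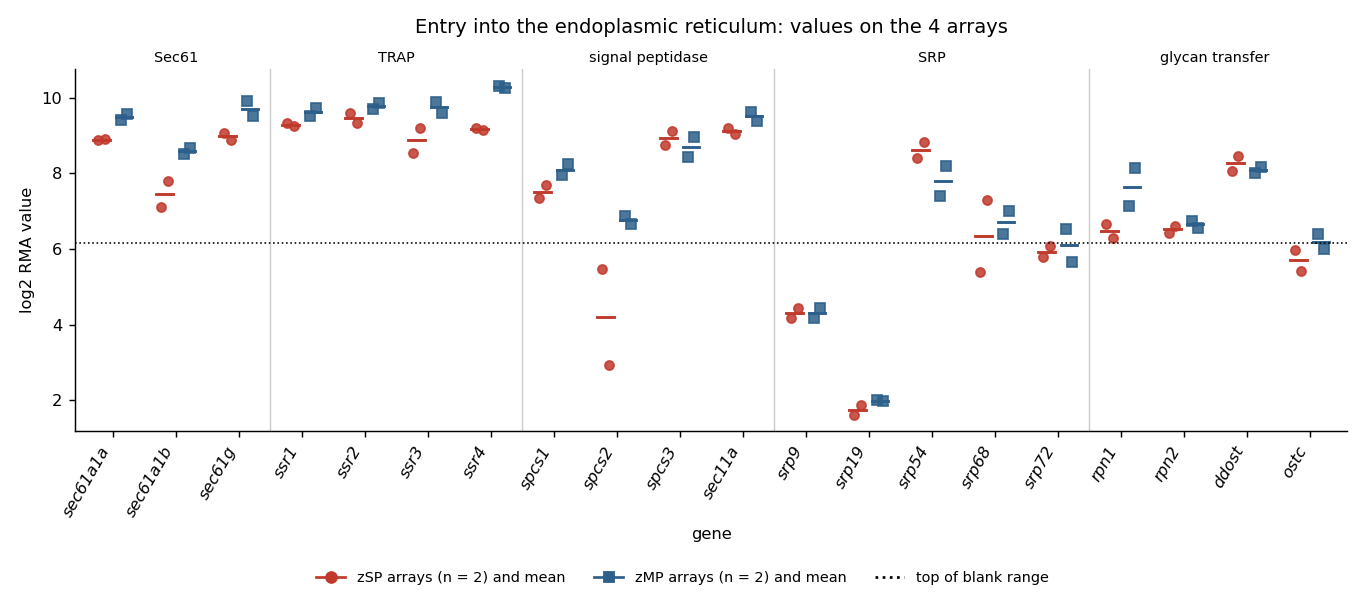
Values on the single arrays (vertical axis, log2 RMA value) for genes of ER entry and glycan transfer, with zSP arrays left of zMP arrays and bars for the means of 2 arrays. The Sec61 and TRAP genes lie lower on both zSP arrays than on both zMP arrays, as do 41.0% of all genes. The zSP arrays of spcs2, at 5.46 and 2.92, are far apart. The dotted line is the top of the blank range.

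Oligosaccharyltransferase, which moves a preformed glycan onto the growing chain, had 4 genes measured and none called. The ribophorin gene rpn1 had 6.67 and 6.28 on the zSP arrays and 7.14 and 8.15 on the zMP arrays, a difference of -1.17 (-1.86 to -0.47), which was -0.66 without zMP replicate 2. The name of its only probe set ends in _a_at, a suffix treated here as shared sequence. Whether it matches transcripts of other genes was not tested. Without that probe set the class median was -0.13. The second ribophorin gene rpn2 differed by -0.13 (-0.33 to 0.06) and the subunit gene ddost by 0.18 (-0.11 to 0.47), both with overlapping arrays. The gene ostc, whose product links the enzyme to the channel, differed by -0.50 (-0.97 to -0.02).

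Folding genes were spread to both sides, though 11 of the 15 had a negative difference, against 5361 of all 8793 genes. Of 15 members 1 was called, pdia3, and it was higher in zMP. Both zSP arrays lay above both zMP arrays for 4 genes and below them for 6. These shares, 26.7% and 40.0%, stand against 21.7% and 41.0% of all genes. For 7 of the 15, at least 1 of the pool means exceeded the blank range.

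The isomerase gene pdia3, whose product works on glycoproteins held by calnexin and calreticulin, had 5.66 and 4.71 on the zSP arrays and 6.97 and 6.86 on the zMP arrays. It fell by 1.73 in zSP (-2.27 to -1.20), with a zSP mean within the blank range. With each array left out the difference was -2.21 to -1.26. These runs could not end its call, since the pairs left had already passed. A family member with the opposite sign was pdia7, with 6.46 and 6.79 in zSP and 5.57 and 5.24 in zMP, a difference of 1.22 (0.89 to 1.56) that was not called. With its 2 probe sets averaged it was 0.58. The isomerase genes pdia2, pdia4, pdia5 and pdia6 differed by 0.51, -0.26, -0.49 and -0.53, and of these pdia4 alone exceeded the blank range.

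The lectin chaperones, which hold glycoproteins until they are folded, showed small differences of either sign. The membrane-bound calnexin gene canx had 9.43 and 9.35 in zSP and 8.73 and 8.63 in zMP, a difference of 0.71 (0.62 to 0.80). The soluble calreticulin genes calr3a, calr and calr3b differed by 0.29, -0.39 and -0.47, with calr and calr3b within the blank range. A second calr probe set gave 0.24 (-0.03 to 0.50), with overlapping arrays. On the probe sets used, the arrays did not overlap for any of these 4 genes, with 2 in each direction. Among all genes, 21.7% did not overlap with higher zSP values and 41.0% with higher zMP values. None of the 4 was called.

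Among the remaining folding genes, manf, which encodes a secreted factor induced by ER stress in mammals, had 6.69 and 6.75 on the zSP arrays and 7.75 and 7.44 on the zMP arrays. Its difference was -0.88 (-1.06 to -0.69), and its second probe set gave -0.69. The gene erp44, which encodes a protein that retains unfinished cargo and oxidases, differed by -0.49 (-0.76 to -0.22). The collagen prolyl 4-hydroxylase genes p4ha1b and p4ha2 and the membrane-anchored relative p4htma differed by -0.29, -0.52 and -0.23, all within the blank range in both pools, and p4htma was at 0.03 after cyclic loess. The p4ha1b arrays were 2.07 apart in zSP and 1.78 apart in zMP, the widest spread of pairs in the class.

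Genes of ER-associated degradation, which sends misfolded chains to the cytosol, numbered 3. The scaffold gene sel1l had 5.23 and 5.24 in zSP and 4.73 and 4.63 in zMP, a difference of 0.55 (0.50 to 0.61), and neither mean left the blank range. Of the mannosidase-like genes, which mark glycoproteins for disposal, edem2 had 6.85 and 5.72 in zSP and 5.63 and 5.12 in zMP, a difference of 0.91 (0.09 to 1.74). Its paralogue edem1 had 5.29 and 6.10 in zSP and 6.32 and 5.45 in zMP, a difference of -0.19 (-1.03 to 0.65) with overlapping arrays. None was called, and edem2 in zSP alone passed the blank range.

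The COPII class holds genes for the coat of vesicles that leave the ER, and also the Sec22 family and sec23ip. Its differences were of both signs. Of 11 members none was called, 4 lay above the zMP arrays on both zSP arrays and 3 below, 36.4% and 27.3% against 21.7% and 41.0% of all genes. For 5 of the 11 the arrays of a pool were more than 2-fold apart, against 26.7% of all genes and 20 of the 65 members, 30.8%.

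The inner coat genes of the Sec23 pair, whose products activate the GTPase of the coat, both had higher values on both zSP arrays. The same held for 21.7% of all genes. The gene sec23b had 7.76 and 8.26 on the zSP arrays and 6.78 and 4.82 on the zMP arrays, a difference of 2.21 (0.98 to 3.44). It missed the call by 1 pair, passed it after median centring at 2.28 and after cyclic loess at 2.28, and was 3.19 without zMP replicate 1 and 1.23 without zMP replicate 2. Its paralogue sec23a had 6.34 and 7.17 in zSP and 4.26 and 6.26 in zMP, a difference of 1.49 (0.08 to 2.91). For both genes the zMP mean lay within the blank range and the zMP arrays were 1.96 apart for sec23b and 1.99 for sec23a.

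The cargo-binding partners of Sec23 did not share that direction. The genes sec24a, sec24b and sec24c differed by 0.39 (0.25 to 0.54), -0.83 (-1.53 to -0.13) and -0.25 (-1.41 to 0.91). The arrays of sec24a and of sec24b did not overlap, in opposite directions, and those of sec24c did. Of the outer coat, sec31a differed by -0.79 (-0.97 to -0.62) within the blank range, and sec13 by -0.02, which was 0.05 after median centring and 0.07 after cyclic loess. The Sec23-interacting gene sec23ip, at -0.02, lay within the blank range, and its sign turned under all 3 other normalizations.

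The SNARE family Sec22, which helps vesicles fuse between ER and Golgi, had 3 genes, none with a mean above the blank range. The gene sec22a had 4.58 and 3.50 on the zSP arrays and 4.77 and 6.50 on the zMP arrays, a difference of -1.59 that was as small as -0.19 in 1 pair. Those of sec22ba and sec22bb were 0.24 (0.13 to 0.35) and 0.57 (-0.35 to 1.49).

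The COPI coat, which brings proteins back from the Golgi to the ER, stood towards higher values in zSP. Its 7 genes had a median of 0.52 with 0.18 to 0.54 in the single pairs, and 0.40 to 0.62 with each array left out. None was called. Both zSP arrays lay above both zMP arrays for 3 genes, 42.9% against 21.7% of all genes, and below for 1.

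Those 3 were the genes of the beta, epsilon and zeta subunits. The first, copb1, had 8.41 and 7.76 in zSP and 7.59 and 6.95 in zMP, a difference of 0.81 (0.17 to 1.46). The epsilon gene cope averaged 7.69 ± 0.43 in zSP and 6.96 ± 0.06 in zMP (SD, n = 2 arrays each), a difference of 0.73 (0.38 to 1.08). The zeta gene copz1 differed by 0.52 (0.31 to 0.74), whereas its paralogue copz2 stood at -0.14 (-1.15 to 0.86). The alpha gene copa differed by 0.58 (-0.12 to 1.29), but by -0.25 on its second probe set.

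The gamma subunit gene copg2 went the other way, with 7.02 and 7.46 on the zSP arrays and 8.25 and 7.99 on the zMP arrays. Its difference was -0.88 (-1.23 to -0.53), and its other probe sets gave -0.66 and -0.37. For the beta-prime gene copb2 the value depended on the probe set, at -0.02, 0.38 and 1.24, and the first of these turned to 0.06 after median centring and 0.03 after cyclic loess. Of 10 members with several probe sets, all of a gene's probe sets had 1 sign for 5.

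The receptors that select cargo and retrieve ER residents showed paralogues with opposite signs. KDEL receptors bind soluble residents in the Golgi and return them. The gene kdelr2b had 7.14 and 7.08 on the zSP arrays and 8.10 and 7.89 on the zMP arrays, a difference of -0.88 (-1.02 to -0.75). Its paralogue kdelr2a had 8.23 and 9.01 in zSP and 7.42 and 8.17 in zMP, a difference of 0.82 (0.06 to 1.59), with 0.71 on a second probe set. The arrays of the pools did not overlap for either gene, though the kdelr2a pools nearly touch. Of all genes, 41.0% lay lower in zSP without overlap and 21.7% higher. The third receptor gene, kdelr3, differed by 0.31 (-0.28 to 0.89).

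The p24 proteins are cargo receptors that cycle between ER and Golgi in both coats, and of their 5 genes none was called. The gene tmed4 had 4.77 and 5.20 in zSP and 2.33 and 4.03 in zMP, a difference of 1.80 (0.74 to 2.87), with all values within the blank range. It was called after cyclic loess. The genes tmed10 and tmed9 differed by -0.59 (-0.95 to -0.23) and -0.82 (-1.66 to 0.02), and tmed2 by 0.01, which was -0.02 after a second quantile normalization. The zSP arrays of tmed3 lay at 7.05 and 9.96, the widest gap between aliquots among the members, and its difference was 0.99 (-0.85 to 2.83). Its probe set also ends in _a_at, treated here as shared sequence. Its other probe sets gave 0.24 and -0.08, the last on a probe set treated as shared sequence too.

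The last member, sec14l1, matches the rule by its letters, but belongs to a family of lipid-transfer proteins. Its difference was -0.29 (-1.72 to 1.14), within the blank range.

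**Figure D4:**
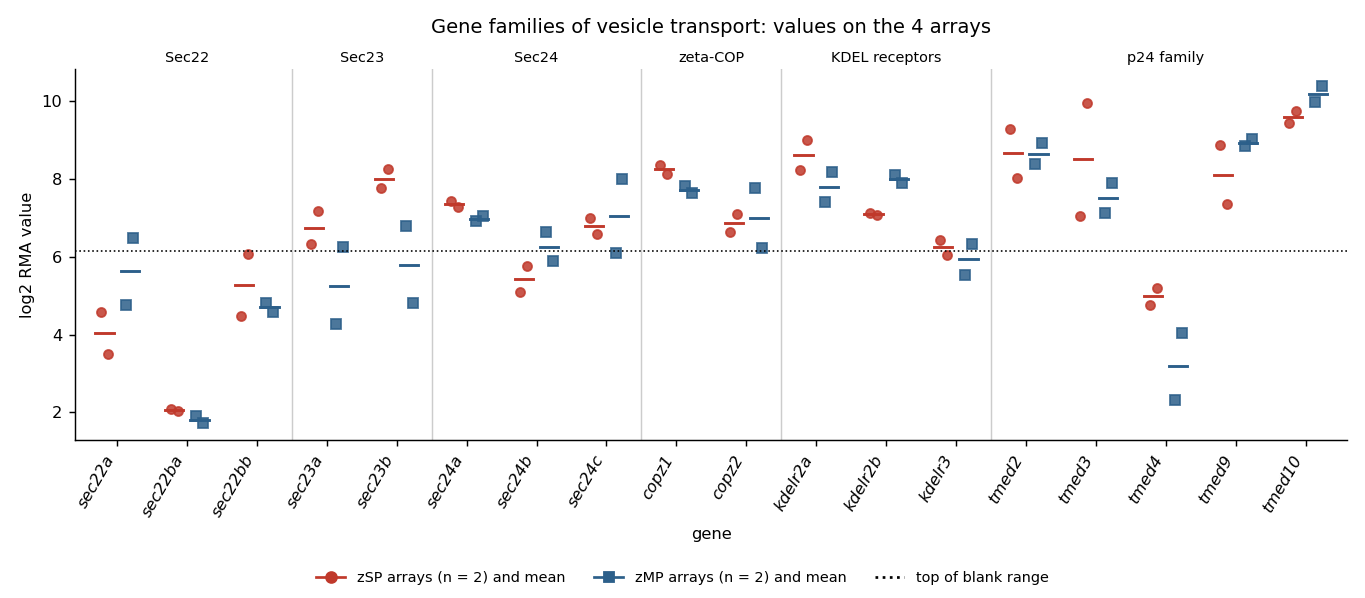
Values on the single arrays (vertical axis, log2 RMA value) for gene families of vesicle transport, with zSP arrays left of zMP arrays and bars for the means of 2 arrays. Paralogues lie on opposite sides for kdelr2a and kdelr2b, at 0.82 and -0.88, and the zMP arrays of sec23a and sec23b are far apart; the dotted line is the top of the blank range.

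A second list, of other genes of the same pathway and of the unfolded protein response, was measured beside the members. The unfolded protein response is the program by which a cell with a crowded ER raises its chaperones and degradation genes. Of 162 symbols listed, 100 were measured. Of these, 8 passed the call with higher zSP values and 3 with higher zMP values, near the 7.85% and 2.89% of all genes. Among the 55 list genes above the blank range in a pool, 6 and 3 passed. The shares of all genes above that range were 16.9% and 6.57%. The list median was 0.01 (-0.01 to 0.16), which is 0.22 relative to all genes, and -0.04 after a second quantile normalization. Without zSP replicates 1 and 2 and zMP replicates 1 and 2, the calls towards zSP numbered 11, 17, 11 and 16 and those towards zMP 7, 5, 6 and 5, beside the counts of all genes given above for these settings.

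The calls towards zSP included a transcription factor, the main chaperone and a phosphatase subunit of this response. The transcription factor gene xbp1 had 12.17 and 11.95 on the zSP arrays and 9.59 and 10.28 on the zMP arrays, and rose by 2.13 in zSP (1.68 to 2.58). The array does not tell whether its mRNA was spliced to the active form. The gene hspa5, for the ER chaperone BiP, had 9.43 and 9.33 in zSP and 7.73 and 7.86 in zMP, and rose by 1.59 (1.46 to 1.71). The gene ppp1r15a, whose product lets translation resume after stress, had 8.74 and 9.12 in zSP and 7.10 and 5.81 in zMP, and rose by 2.47 (1.63 to 3.31).

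Other stress regulators and chaperones were not called. The paralogous transcription factor genes atf4a and atf4b differed by -0.44 (-0.76 to -0.13) and 0.94 (0.81 to 1.07), and atf4b was called after cyclic loess. The ER chaperone gene hsp90b1 differed by -0.31 (-0.78 to 0.15), and its arrays overlapped between the pools. The co-chaperone genes dnajb11 and hyou1 and the stress-sensor gene creb3l2, picked after their values were seen, differed by 0.63 (0.17 to 1.09), -0.45 (-1.79 to 0.90) and 1.27 (-0.75 to 3.29). Picked after their values were seen, the degradation genes syvn1, derl1, derl2 and herpud1 had differences of 1.12 (0.90 to 1.35), 0.95, 0.99 and 0.74. The gene herpud2, picked likewise, stood at 1.08 (0.56 to 1.59), with a zMP mean within the blank range. Other genes of that route did not go with them, and selenos stood at -0.53. The arrays of erlec1, nploc4, vcp and ufd1l overlapped, at -0.43, -0.23, 0.22 and 0.20. Both means of erlec1 and of nploc4 lay within the blank range. The lectin gene os9 stood at -2.07 (-3.34 to -0.80), with a zSP mean within the blank range. It was called higher in zMP after a second quantile normalization, and syvn1 higher in zSP after cyclic loess.

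At the channel, partner genes split. The SRP receptor gene srprb had 7.71 and 7.90 in zSP and 9.68 and 8.95 in zMP, and fell by 1.51 in zSP (-1.97 to -1.05), a call that ended at -1.32 after cyclic loess. The partner subunit gene srpra, picked after its values were seen, stood at 1.12 (0.12 to 2.12). The gene tram2, whose product helps chains into the membrane, was called at 1.57 (1.24 to 1.90), although neither mean left the blank range. Of the oligosaccharyltransferase, the catalytic genes stt3a and stt3b and the subunit gene dad1 differed by -0.21, 0.87 and -0.84, none called, and stt3b within the blank range.

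Among genes that act between ER and Golgi, 4 were called, in a list where 8 of 11 calls went towards zSP. Over all genes, 690 calls went towards zSP and 254 towards zMP, a like split. The list was not divided by step, so these 4 have no share of their own. Genes not called went both ways. Differences were negative for lman1 at -0.43, lman2 at -0.60 and scfd1 at -0.61. The arrays of lman1 and scfd1 overlapped, with both means of each within the blank range, and the zSP mean of lman2 lay there too. The arrays of uso1, rab6a, golga5 and gorasp2, picked after their values were seen, did not overlap, with higher zSP values. The same held for 21.7% of all genes. The zMP means of uso1, rab6a, golga5 and gorasp2 lay within the blank range, as did the zSP mean of golga5. The Rab GTPase gene rab1ba had 9.12 and 9.30 in zSP and 7.69 and 7.33 in zMP, and rose by 1.70 (1.44 to 1.97). Its paralogue rab1ab rose by 1.45 (1.05 to 1.86). The gene rab1bb, within the blank range and with zMP arrays at 3.08 and 6.54, stood at -2.40 and was picked after its values were seen.

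The membrane protein genes yif1a and ergic3, of the compartment between ER and Golgi, rose by 1.74 (1.58 to 1.91) and 2.05 (1.65 to 2.44), both with zMP means within the blank range and ergic3 also in zSP. The delta subunit genes of COPI, arcn1a and arcn1b, differed by 0.72 (-0.14 to 1.57) and 1.87 (-0.22 to 3.97), not called. The small GTPase gene sar1b, which starts COPII assembly, stood at -0.06, and at 0.01 and 0.11 after median centring and cyclic loess. The other genes called higher in zMP were the thioredoxin-like tmx1 at -1.41 (-1.45 to -1.36) and the calcium-binding nucleobindin nucb2a at -1.29 (-1.49 to -1.09). The zSP mean of nucb2a lay within the blank range.

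**Figure D5:**
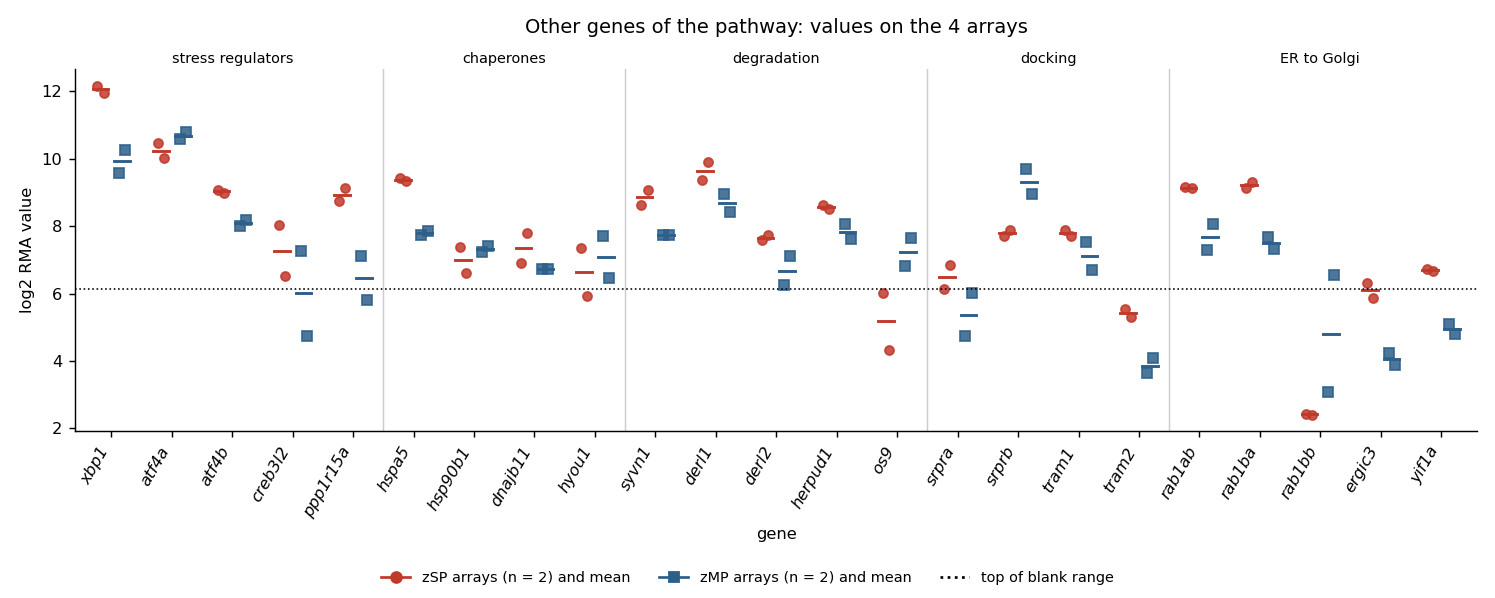
Values on the single arrays (vertical axis, log2 RMA value) for other genes of the pathway and its stress response, with zSP arrays left of zMP arrays and bars for the means of 2 arrays. The zSP arrays of xbp1, hspa5, ppp1r15a and rab1ba lie above their zMP arrays by more than 2-fold, and those of srprb lie below; the dotted line is the top of the blank range.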

How the data were processed

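Cells of 2 sorted populations were measured on 4 Affymetrix arrays, 2 per pooled RNA. Per the submitters' processing notes, the authors' log2 values came from RMA and affy (versions not recorded there), and the table covered 15617 probe sets. RMA makes the probe distributions of the arrays alike, which can hide a shift of all genes. The values were taken as deposited. After 115 control probe sets were left out, 15502 remained, of which 10795 carried 1 gene in the platform's annotation; 135 with several genes were not used. A gene was represented by its probe set with the highest mean.

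Members, lists and classes were chosen with earlier results of these data known. Named genes are every called member, the extremes and the widest pair span of each class, the called genes of the second list and some fixed regulators; any other gene was picked with its values in view. The call and its pair differences were tested on simulated data in Python 3.11.15. Limma 3.58.1 in R 4.3.3 gave quantile and cyclic loess normalizations. The number of arrays limits the precision. Sequence features and genome positions were not analysed here.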

Additional observations from a re-analysis of the deposited data

How the results depend on the processing

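The counts of called members, 0 higher in zSP and 3 higher in zMP, moved most with the rule of size. At 1.5-fold they were 4 and 7, at 3-fold 0 and 0, by the difference of means alone 4 and 6, and for groups that do not overlap, an alternative chosen after seeing the data, 16 and 25. The shares of all genes were 11.6% and 9.66% at 1.5-fold, 4.50% and 0.694% at 3-fold, 14.2% and 9.22% by means, and 21.7% and 41.0% without overlap. Leaving out 1 array gave 1 to 5 and 3 to 6. In these runs spcs2, ssr4 and pdia3 could not lose their call, since the 2 pairs left are among the 4 that passed. Towards zSP they were 1 after median centring and 2 after cyclic loess, where 8.44% and 9.29% of all genes were called. The replicate block, in which only pairs of arrays with the same number must pass, gave 1 and 3, against 9.23% and 4.08% of all genes. The numbers do not pair the arrays: the deviations of same-numbered arrays had a correlation of -0.011 over probe sets.

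The member median of -0.24 was -0.16 after median centring, -0.33 after a second quantile normalization, -0.079 after cyclic loess, and -0.24 to -0.038 with 1 array left out. For targeting and translocation, -0.38, these were -0.30, -0.50, -0.22 and -0.50 to -0.43, and -0.59 above the blank range. Folding, -0.39, was -0.19 after cyclic loess, -0.26 above the blank range and -0.50 to -0.25 with 1 array left out. N-glycan transfer, -0.32, was -0.56 after the second quantile normalization, -0.13 without shared-sequence probe sets and -0.45 to -0.17 with 1 array left out, the last without zMP replicate 1. ER-associated degradation, 0.55, was 0.91 above the blank range, on 1 gene, and 0.34 without zSP replicate 1, and COPII was -0.066 to 0.21 with 1 array left out. The cause of these shifts was not tested. No called gene changed sign under any alternative run. A sign could not turn with 1 array left out or another rule of size, since the pairs of a called gene share their direction. Only the other normalizations and choices of probe sets could have turned a sign. The planned sequence description was not run. The 2 arrays per pool limit every value, and genes within the blank range are limited by background.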

Other observations

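Further genes of the second list, picked after their values were seen, extend 3 of its groups. Among transport genes, the retrieval receptor gene rer1 had 6.90 and 6.50 on the zSP arrays and 5.09 and 5.52 on the zMP arrays, a difference of 1.40 (0.98 to 1.81) that was called after median centring and after cyclic loess. The gene preb, whose product loads the GTPase of COPII, differed by 0.98, with a lowest pair of 0.67. Among genes of glycan transfer and folding, magt1 differed by -1.27 (-2.25 to -0.30), with zSP arrays at 7.93 and 9.36 and zMP arrays at 9.67 and 10.18. The proline isomerase gene ppib had 8.49 and 8.39 in zSP and 9.38 and 9.70 in zMP, a difference of -1.10 (-1.31 to -0.88). None of these 4 genes was called, and in each both zSP arrays lay on one side of both zMP arrays. Among all genes, 21.7% had both zSP arrays above both zMP arrays and 41.0% had them below. The zMP mean of rer1 lay within the blank range. The translocation helper gene tram1, which sits beside the Sec61 channel, stood at 0.66 (0.16 to 1.17), opposite in sign to the 3 Sec61 genes.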
